A study of Mus musculus with 2 samples.

Results

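The cells described here are an early population of mouse fetal liver cells. They held UMIs (unique molecular identifiers, counted RNA molecules) of Gzma, Khdc1a or Nrgn, alone or together, and no UMI of Il2ra. They were chosen by measured counts: 2 or more UMIs of these 3 genes together (the trio), no Il2ra, no Ptcra, Lef1 or Bcl11b, at most 1 UMI of Lmo2 and Mef2c together, at most 2 of Id2, and fewer than 10 of Elane, Ctsg, Prtn3, Ms4a3, Lyz2 and S100a8 together, with any number of Cd3g UMIs. By this rule 260 of the 1788 kept cells of library FL001 and 827 of the 4100 kept cells of library FL002 were trio cells, 1087 in all. The cells that met the same limits but held no trio UMI, 66 in FL001 and 258 in FL002, served as comparison cells. The 16 genes of the rule are described but are not results, because they set who is a member.

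Fetal liver of wild type CD1 mouse embryos at E13.5 was the source of both libraries. After TER-119 depletion, which takes away red cell precursors, hematopoietic stem and progenitor cells that were Sca-1+ and cKit+ were sorted and grown in wells coated with the Notch ligand DL4 at 10 µg/mL and the adhesion molecule VCAM-1 at 2.32 µg/mL, with 1000 cells in a well. Single cells were captured on the 10X Chromium system. Per a supplementary figure legend of the study, some cells were captured right after the sort and others after days of culture. Both libraries carry the same labels, so uncultured cells and cells of different culture times may lie in either library and in either group compared below, and culture time and group cannot be told apart. The labels name no untreated, DL4-free or freshly sorted group, and the number of embryos pooled is not given in the sources used here. No p-value is given, since each library is 1 sample and the cells were chosen by the same counts. Levels are counts per 1000000 UMIs (CPM) from the summed UMIs of a group, with exact 95% Poisson intervals, shares carry exact 95% binomial intervals, and all of these cover counting error only.

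Blood progenitors enter the T cell lineage when Notch1 meets a Delta ligand: cleaved Notch joins the DNA-binding protein RBPJ and switches on targets such as Hes1, Nrarp, Dtx1 and Tcf7, whose product TCF-1 then opens T lineage genes. Stem and progenitor genes are lost along the way, Il2ra (CD25) marks the next stage, and Bcl11b marks commitment. Gzma encodes granzyme A, a serine protease of cytotoxic granules. Nrgn encodes neurogranin, a calmodulin-binding protein best known from neurons, and Khdc1a is a member of a family of KH domain genes best known from oocytes and early embryos.

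The trio was led by Gzma, and among the genes that rose outside the rule were another granzyme, Gzmb, and the CD3 gamma chain Cd3g. The 250 bases before the start of these genes are shown because Gzma defines most of the cells and the others are a granzyme and the T cell gene with the largest rise. The sequences are from RefSeq on GRCm38.p6, all from the minus strand, chr13:113100982-113101231 for Gzma, chr14:56262335-56262584 for Gzmb and chr9:44980432-44980681 for Cd3g. Capitals mark matches on either strand to CACCTG, a letter string that E proteins bind, and to TGTGGT, one that Runx proteins bind.
Gzma: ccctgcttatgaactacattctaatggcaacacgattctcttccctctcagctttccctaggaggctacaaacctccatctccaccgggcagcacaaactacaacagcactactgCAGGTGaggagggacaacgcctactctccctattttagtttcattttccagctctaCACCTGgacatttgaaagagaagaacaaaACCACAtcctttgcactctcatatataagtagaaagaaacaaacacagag
Gzmb: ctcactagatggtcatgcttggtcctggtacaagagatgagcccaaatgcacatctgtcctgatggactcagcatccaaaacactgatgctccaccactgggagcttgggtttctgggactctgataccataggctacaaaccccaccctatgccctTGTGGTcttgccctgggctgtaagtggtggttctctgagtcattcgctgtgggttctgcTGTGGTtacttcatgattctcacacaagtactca
Cd3g: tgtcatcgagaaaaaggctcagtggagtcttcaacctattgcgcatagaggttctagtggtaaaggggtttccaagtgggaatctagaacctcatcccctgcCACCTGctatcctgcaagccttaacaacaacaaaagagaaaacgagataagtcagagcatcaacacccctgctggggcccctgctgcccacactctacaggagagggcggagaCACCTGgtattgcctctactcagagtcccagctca
Gzma held CAGGTG, the reverse complement of CACCTG, 135 bases before the start, CACCTG at 79 bases, and ACCACA, the reverse complement of TGTGGT, at 50 bases. Gzmb held TGTGGT at 93 and 34 bases, and Cd3g held CACCTG at 148 and 35 bases. No 2 matches overlapped. Of the genes higher in trio cells in the comparison below, 51 of 67 matched a RefSeq promoter, and CACCTG or its reverse complement was in the window of 14 of them (27.5%), TGTGGT or its reverse complement in 13 (25.5%). Of the genes lower, 44 of 51 matched, with 11 (25%) and 5 (11.4%). The shares over all 27025 genes of the table were 19.4% and 15.9%, and over the 2161 tested genes with a promoter 16.1% and 12.3%. These letter matches are a description of the windows and no test was made of them.

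Most trio cells were trio cells by Gzma. It had at least 1 UMI in 87.3% of them in FL001 and 90.4% in FL002, with a median of 12 and 7 UMIs per cell and a maximum of 215 and 99. Gzma made up 90.0% and 86.5% of their trio UMIs. Nrgn had a UMI in 84.6% and 72.4% of trio cells, at a median of 2 and 1 UMIs, whereas Khdc1a had one in only 19.2% and 22%. The most frequent pattern was Gzma with Nrgn and no Khdc1a (54.6% and 48.6% of trio cells). All 3 genes were found in 17.3% and 14.5%, Gzma alone in 13.8% and 21.9% and Nrgn alone in 12.3% and 7.50%. These shares follow from the rule and are a description only. Khdc1a, at 37.3 and 75.3 CPM, was seen in a minority of the cells that carry its name. Of its family, Khdc1b had no UMI in either library's trio cells and Khdc1c had 2 and 17. Reads shared between these related genes could have been split or dropped in the counting.

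Among cells within the other limits of the rule, trio cells made up 68.1% (63.1% to 72.7%) of 382 in FL001 and 65.6% (62.9% to 68.3%) of 1260 in FL002. Depth bears on both sides of this share. With every cell thinned to 1500 UMIs before the rule was applied, trio cells numbered 432 and 1105 and comparison cells 444 and 979, since cells that lost their UMIs of the other rule genes then also met the limits, and the shares were 42.0% and 44.3%. Just outside the threshold, 56 and 175 cells had 1 trio UMI, and just inside it 27 and 115 cells had 2. The remaining trio cells spread widely, with 3 or 4 UMIs in 38 and 143 cells, 5 to 14 in 73 and 289, 15 to 49 in 78 and 235, and 50 or more in 44 and 45.

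**Figure D1:**
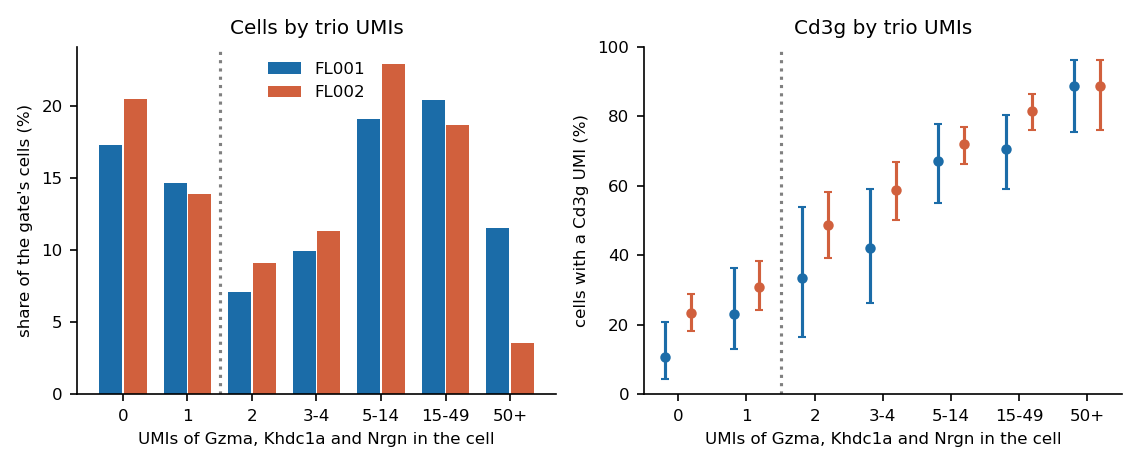
Left, share of the 382 (FL001) and 1260 (FL002) cells within the rule's other limits, in percent, by the number of Gzma, Khdc1a and Nrgn UMIs in the cell, and right, share of the cells in each bin with a Cd3g UMI, in percent, with exact 95% binomial intervals. The dotted line is the threshold of 2 UMIs, and the Cd3g share climbs from 10.6% and 23.3% at 0 UMIs to 88.6% and 88.9% at 50 or more.

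A UMI of Gzma alone does not show that a cell makes the RNA. Droplets with 1 to 100 UMIs, which hold free RNA, carried Gzma at 3922 and 2141 CPM, so Gzma was abundant in the free RNA of both libraries. Trio cells, though picked for trio UMIs, had Gzma at 2563 and 2364 CPM, below the free RNA in FL001 and near it in FL002. In cells with 10 or more UMIs of the granule genes, which by lineage should lack the trio, 2 or more trio UMIs were found in 9.59% (3.94% to 18.8%) of 73 cells in FL001 and 8.70% (3.26% to 18.0%) of 69 in FL002, at median depths of 11896 and 8001 UMIs. Thinned to 1500 UMIs per cell, the share was 1.37% and 1.45% there. In trio cells it was 58.5% and 68.4%, which follows from the rule and is no check on free RNA. Trio cells were deeper than comparison cells, with a median of 8902.5 against 4647 UMIs in FL001 and 5417 against 3905 in FL002. Mitochondrial shares were alike, with medians of 3.59% against 3.56% and 3.72% against 3.55%. Doublet scores ran higher in trio cells: 6.15% and 6.05% of them lay in the top 5% of their library's scores, against 1.52% and 0.775% of comparison cells. Of the kept barcodes, 10 occurred in both libraries, 4 and 1 of them trio cells. The part of depth, free RNA and doublets in the results was not tested beyond the values given.

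The comparison of trio cells with comparison cells asks what else differed between cells with and without trio UMIs when neither had a UMI of Il2ra or of the commitment genes. A count of 0 can be a missed molecule, more easily so in the shallower comparison cells. A gene counts as higher or lower when its level differed at least 1.5-fold the same way in both libraries. Its level also had to average at least 50 CPM over the groups. A gene scarce in 1 group could thus be tested through its level in the other. Of 2805 genes tested in both, 67 were higher (2.39%) and 51 lower (1.82%), and none moved past 1.5-fold in opposite directions. Each library alone gave more, 223 higher (7.37%) and 203 lower (6.71%) in FL001 and 119 (4.02%) and 94 (3.18%) in FL002. The median log2 ratio over all tested genes was 0.05 in both. In the FL001 comparison cells 50 CPM are only 16.8 UMIs, which makes single ratios there imprecise.

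The trio cells were richer in early T lineage RNA. Cd3g, the gamma chain of the CD3 signalling complex, stood at 1020.1 (980.4 to 1061) CPM in the trio cells of FL001 against 50.6 (29.5 to 80.98) in the comparison cells, and at 1196 (1164 to 1227) against 241 (212 to 272) in FL002. The ratios were 20.2 (interval 12.6 to 34.7) in FL001 and 4.97 (interval 4.38 to 5.66) in FL002, and the comparison level in FL001 rested on 17 UMIs, 8 of them in 1 cell. Tcf7, which encodes TCF-1, the Notch-induced factor that starts the T program, stood at 271 (251 to 293) CPM in the trio cells of FL001 against 47.6 (27.2 to 77.3) in the comparison cells, and at 346 (329.7 to 364) against 76.4 (60.7 to 94.99) in FL002. Its ratios were 5.70 (interval 3.48 to 10.03) in FL001 and 4.53 (interval 3.63 to 5.74) in FL002, and a UMI of it was present in 76.2% and 71.5% of trio cells against 13.6% and 18.2% of comparison cells. Thinned to 1500 UMIs per cell, these shares were 36.9% and 39.4% against 3.03% and 10.5%, and in granule gene cells, which should lack Tcf7, a UMI was present in 6.85% and 5.80% at their full depth. Trbc1, a constant segment of the T cell receptor beta chain, was 3.02 and 3.22 times as high, and reads shared with its near-identical neighbour Trbc2 make its level uncertain. The kinase Lck (2.42 and 1.87 times) and the adaptor Lat (1.67 and 1.79 times), both used in T cell receptor signalling, were higher too.

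Of the list of T lineage entry genes, 6 of 26 were abundant enough to test and 4 were higher (Cd3g, Tcf7, Lck and Lat), none lower, with median log2 ratios of 1.01 and 0.87. Several others were below the level tested. Cd3d, another CD3 chain, was at 63.9 against 2.98 CPM in FL001 and 100.1 against 16.98 in FL002. Cd3e was at 19.3 against 0 CPM in FL001 and 37.2 against 9.44 in FL002, and Thy1, a surface protein of T cells, at 26.6 against 0 CPM in FL001 and 36.1 against 13.2 in FL002. Gata3, a Notch-linked T lineage factor, was also under the limit, at 73.4 against 20.8 CPM in FL001 and 76.6 against 20.8 in FL002. All 4 had higher levels in the trio cells of each library, from few comparison UMIs (Cd3d 1 and 18, Cd3e 0 and 10, Thy1 0 and 14, Gata3 7 and 22). Il7r, the interleukin 7 receptor, was low in both groups, at 11.9 against 8.93 CPM in FL001 and 10.2 against 18.9 in FL002.

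**Figure D2:**
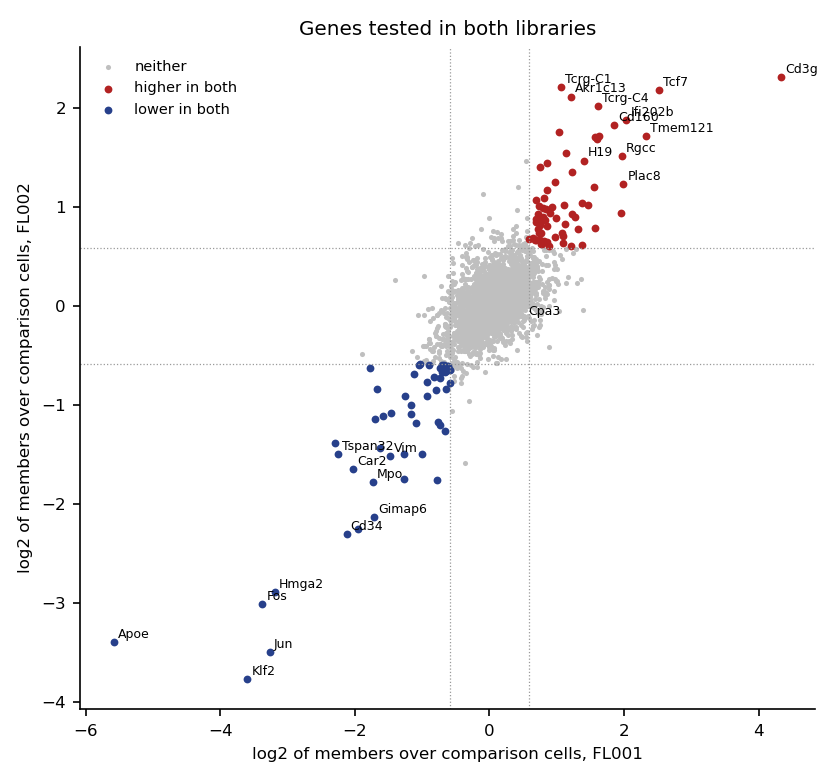
Each point is 1 of the 2805 genes tested in both libraries, placed by the log2 ratio of trio cells (members) over comparison cells in FL001 (x axis) and FL002 (y axis), with dotted lines at 1.5-fold. The 67 genes higher in both (red) run up to Cd3g and the 51 lower in both (blue) down to Klf2, Jun and Apoe, and Cpa3 lies among the genes that are neither.

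Levels of the receptor Notch1 and of some Notch targets were higher in trio cells. Of 17 genes of the list 6 could be tested, and 4 of these were higher and none lower, with median log2 ratios of 0.89 and 1.03. Beside Tcf7 these were Notch1, the receptor itself (125 against 59.5 CPM in FL001 and 137 against 82.1 in FL002), Nrarp, a target that feeds back on the Notch complex (181 against 92.2 CPM in FL001 and 207 against 86.8 in FL002), and Hes1, a repressor that is a direct target (83.6 against 47.6 CPM in FL001 and 118 against 55.7 in FL002). The ratio of Hes1 was 1.76 (interval 1.06 to 3.13) in FL001 and 2.13 (interval 1.62 to 2.83) in FL002. The Notch1 level of the FL001 comparison cells came from 20 UMIs. With cells thinned to equal depth, the share with a Notch1 UMI hardly differed in FL001, at 16.2% of trio against 15.2% of comparison cells. In FL002 it was 20.8% against 13.2%. The thinned shares of Nrarp were 23.5% against 10.6% in FL001 and 23.8% against 10.5% in FL002. Those of Hes1 were 10% against 6.06% in FL001 and 16.8% against 6.59% in FL002. Dtx1, a further target, was 1.33 and 1.96 times as high and so fell short of 1.5-fold in FL001. Rbpj, the DNA-binding partner, was below the level tested, at 33.2 against 20.8 CPM in FL001 and 41.7 against 20.8 in FL002, and Notch2 was near 0 in both groups.

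All 3 tested genes of the gamma and delta receptor list were higher, and all 3 are constant segments of the T cell receptor gamma chain. Tcrg-C1 was at 385 against 184 CPM in FL001 and 323 against 69.8 in FL002. Tcrg-C2 was at 287 against 139.8 CPM in FL001 and 266 against 78.3 in FL002, and Tcrg-C4 at 245 against 80.3 CPM in FL001 and 222 against 54.7 in FL002. These segments are alike in sequence, and their reads could have been split among them. The rise was larger in FL002 than in FL001 for Tcrg-C1, with ratios of 2.09 (interval 1.61 to 2.74) in FL001 and 4.63 (interval 3.66 to 5.93) in FL002, and the FL001 comparison level came from 13.6% of cells, 1 of which held 25.8% of its UMIs. Trdc, the delta chain constant segment, was scarce, at 27.5 against 8.93 CPM in FL001 and 43.5 against 22.6 in FL002.

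Beside granzyme A, the trio cells held some other cytotoxic genes and the receptor gene Cd160, but not the whole granule set. Cd160, a receptor on natural killer and T cells, was at 236 against 65.5 CPM in FL001 and 174 against 49.1 in FL002, with ratios of 3.61 (interval 2.36 to 5.80) in FL001 and 3.54 (interval 2.68 to 4.79) in FL002. Gzmb, encoding granzyme B, was at 119 against 50.6 CPM in FL001 and 121 against 47.2 in FL002, with a UMI in 34.2% and 25.3% of trio cells and 4.11% and 0% of granule gene cells. In FL001 1 trio cell held 14.1% of its UMIs. The granule protein gene Nkg7 (1.62 and 1.84 times) and the signalling chain Fcer1g (2.15 and 2.03 times) were also higher. Of 8 tested genes of this list 3 were higher and none lower (Gzmb, Nkg7 and Fcer1g; Cd160 is not in it). Srgn, the granule proteoglycan and the most abundant gene of the list, was at 630.3 against 791 CPM in FL001 and 563 against 583 in FL002. Perforin (Prf1) and Gzmk had no UMI in the trio cells of either library, Gzmc had 4 and 4 and Gzmm 3 and 5. In all, 7 and 6 of the 25 genes were at 0 in trio cells, and of the 17 innate lymphoid genes none reached the level tested. Summed over the 25 genes, the level was 1.20 and 1.27 times as high in trio cells. The natural killer receptor gene Klrd1 was at 4.92 and 0.865 CPM in trio cells, and Klrb1c, Klrk1 and Ncr1 were lower still.

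**Figure D3:**
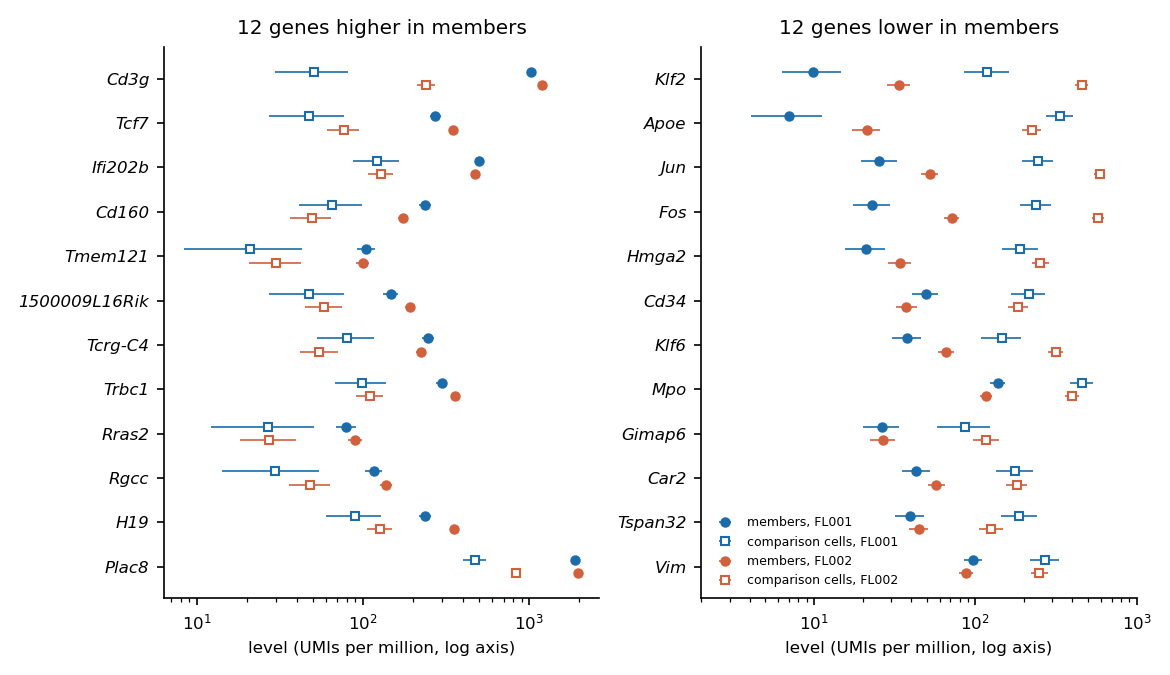
Levels in CPM (log axis) of the 12 genes with the largest rise (left) and the largest fall (right), in trio cells (members, filled circles) and comparison cells (open squares) of FL001 (blue) and FL002 (orange), with exact 95% Poisson intervals. For each gene the 2 filled points lie on the same side of the 2 open ones.

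Interferon-linked membrane genes were higher, classical MHC class I was not. Ifitm1, Ifitm2 and Ifitm3, small interferon-inducible membrane proteins, were all higher, though their like sequences make single levels uncertain. Ifitm1, the most abundant of them, was at 2988 against 1660.1 CPM in FL001 and 2827 against 1255 in FL002. Ifitm2 was 1.80 and 1.98 times as high and Ifitm3 1.86 and 1.91 times. Psmb8, a subunit of the immunoproteasome, was 1.80 and 1.57 times as high, and Ly6e, an interferon-inducible surface protein, 1.66 and 2.01 times. These made 5 of 10 tested genes of the MHC class I and interferon list, with none lower. Among cells without a Cd3g UMI only Ifitm2 and Psmb8 of them passed in both libraries. Ifi202b, an interferon-inducible gene of the p200 family outside the list, had the largest rise after Cd3g and Tcf7, at 500.01 against 122 CPM in FL001 and 473 against 128 in FL002. By contrast B2m had log2 ratios of -0.05 and 0.01, H2-K1 of -0.56 and 0.06 and H2-D1 of -0.70 and -0.34.

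The other genes among the 12 with the largest rise had varied roles. Plac8, a small cysteine-rich protein of blood cells, was the most abundant, at 1867 against 470.1 CPM in FL001 and 1963 against 835 in FL002. Rgcc, a cell cycle regulator (3.91 and 2.86 times), the small GTPase Rras2 (2.95 and 3.26 times), Tmem121 (4.999 and 3.29 times) and 1500009L16Rik (3.08 and 3.28 times) were less abundant than Plac8 and rose in each library. H19, an imprinted non-coding RNA of fetal tissues, was 2.64 and 2.77 times as high. Among cells without a Cd3g UMI, however, its log2 ratio in FL001 was -0.39. The transcription factors Runx3 (2.58 and 2.05 times) and Xbp1 (2.20 and 2.92 times) were also higher.

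Of the marker genes named with this population, Akr1c13, an aldo-keto reductase, was higher in both libraries, at 399.6 against 173 CPM in FL001 and 405 against 93.4 in FL002. Among cells without a Cd3g UMI its ratios were 1.46 and 3.12, so it did not pass 1.5-fold in FL001 there. The related Akr1c12, which shares sequence with it, was at 33.2 against 20.8 CPM in FL001 and 23.8 against 11.3 in FL002. Cpa3, the mast cell carboxypeptidase that early T cells also express, was not higher. It was at 127 (113 to 142) CPM in the trio cells of FL001 against 89.3 (60.2 to 127) in the comparison cells, and at 118 (109 to 129) against 130.2 (109 to 154) in FL002, with ratios of 1.42 (interval 0.977 to 2.15) in FL001 and 0.909 (interval 0.752 to 1.10) in FL002. A single comparison cell held 36.7% of the Cpa3 UMIs of its group in FL001 and 1 held 17.4% in FL002. The whole mast cell and basophil list summed to 145 against 292 CPM in FL001 and 138 against 187 in FL002, with 10 and 7 of its 15 genes at 0 in trio cells and Cpa3 the only one tested.

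Some stem and progenitor genes were lower, others were not. Cd34, the surface sialomucin of progenitors, fell from 214 CPM in comparison cells to 49.2 in trio cells of FL001 and from 185 to 37.4 in FL002, 4.36-fold in FL001 and 4.94-fold in FL002. Hmga2, a chromatin protein of fetal stem cells, was 9.11 and 7.45 times lower, at 20.9 against 190.4 CPM in FL001 and 33.95 against 253 in FL002. In the stem and progenitor list 3 of 8 tested genes were lower (Cd34, Bcl11a and Hhex) and none higher, with median log2 ratios of -0.69 and -0.49. Among cells without a Cd3g UMI only Cd34 of them was lower in both libraries. Lyl1, the most abundant of them, had log2 ratios of 0.01 and 0.09 and Kit, the stem cell factor receptor, of -0.39 and -0.13. Flt3, a cytokine receptor of early lymphoid and myeloid progenitors, was under the level tested, with 4 and 12 UMIs in trio cells against 13 and 37 in the fewer comparison cells.

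Single genes of the myeloid and the megakaryocyte and erythroid lists were lower. Mpo, the myeloperoxidase of myeloid precursors, was at 138 against 458 CPM in FL001 and 116 against 397 in FL002. It was the 1 tested gene of the myeloid list, in which the whole sum was 185 against 598 CPM in FL001 and 144 against 473 in FL002. Car2, a carbonic anhydrase of red cell and platelet precursors, was at 43.03 against 176 CPM in FL001 and 57.3 against 180.2 in FL002, and that list summed to 133 against 342 CPM in FL001 and 138 against 305 in FL002. The B lineage list had no tested gene and summed to 72.1 against 107 CPM in FL001 and 76.3 against 175 in FL002. Apoe, a lipid carrier made by progenitors and macrophages, was at 6.97 against 333 CPM in FL001 and 21.2 against 224 in FL002. Apoe was thus 47.8 and 10.6 times lower, from few trio cell UMIs. Vim, an intermediate filament gene, was 2.79 and 2.86 times lower and the tetraspanin Tspan32 4.76 and 2.82 times. Gimap6, a GTPase of lymphocytes, was 3.29 and 4.40 times lower. In cells with fewer than 2 UMIs of the B, megakaryocyte and erythroid, and mast cell lists, 61 genes were higher and 58 lower, among them 39 of the 67 and 29 of the 51 of the whole comparison. That subset held 31 and 126 comparison cells, and the number of genes tested in it was not kept, so no share is given.

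Immediate early genes fell together. Of 8 tested genes of that list 6 were lower and none higher, with median log2 ratios of -0.69 and -1.14. Fos, a subunit of the AP-1 transcription factor, was at 22.95 against 238 CPM in FL001 and 71.4 against 576 in FL002. Its partner Jun was at 25.4 against 244 CPM in FL001 and 52.1 against 589.7 in FL002. Klf2, a zinc finger factor of lymphocyte quiescence and trafficking that is not in the list, was at 9.84 against 119 CPM in FL001 and 33.5 against 458 in FL002, or 12.1 and 13.7 times lower. A single comparison cell held 30% of the 40 Klf2 UMIs of its group in FL001. In FL002 1 trio cell held 18.1% of the 155 Klf2 UMIs of its group. Junb, Jund, Ier2 and the chaperone gene Dnajb1 were lower by smaller factors, from 1.56 to 2.75 in FL001. The related factor Klf6 was 3.87 and 4.76 times lower, but among cells without Fos, Jun or Klf2 UMIs its log2 ratio in FL001 was 1.25. Klf2 also differed between the libraries, since in comparison cells it was at 119 CPM in FL001 and 458 in FL002.

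**Figure D4:**
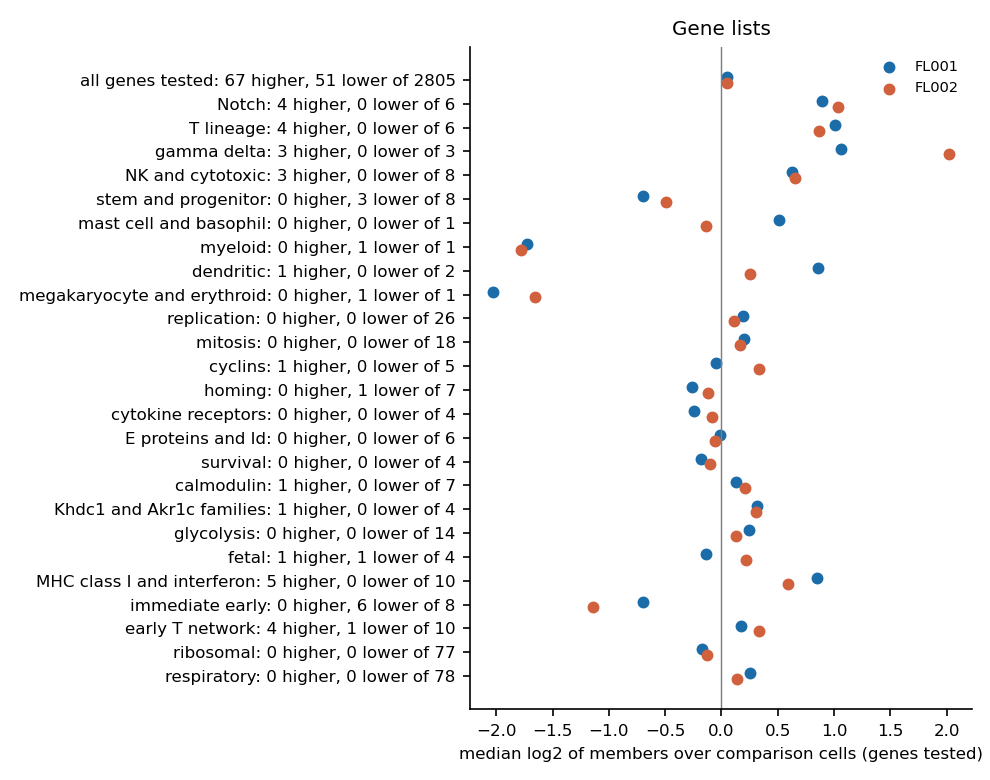
Median log2 ratio of trio cells (members) over comparison cells for the tested genes of each list, in FL001 (blue) and FL002 (orange). The labels give how many of the tested genes were higher or lower in both libraries. The Notch, T lineage and gamma delta lists lie to the right and the immediate early and stem and progenitor lists to the left. All genes had a median of 0.05. Lower medians, from 1 tested gene each, were those of the myeloid list (-1.73 and -1.78) and the megakaryocyte and erythroid list (-2.03 and -1.65).

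Growth and metabolism lists had no gene past the threshold. None of 26 tested replication genes, 18 mitosis genes, 14 glycolysis genes, 78 respiratory chain genes or 77 ribosomal protein genes was higher or lower. Their median log2 ratios in FL001 and FL002 were 0.19 and 0.11 for replication, 0.20 and 0.16 for mitosis, 0.24 and 0.13 for glycolysis, 0.25 and 0.13 for the respiratory chain and -0.18 and -0.12 for ribosomal proteins. Counted per cell after thinning to 1500 UMIs, 3 or more mitosis UMIs were found in 57.7% (51.4% to 63.8%) and 58.8% (55.3% to 62.1%) of trio cells and in 40.9% (28.95% to 53.7%) and 47.7% (41.4% to 53.96%) of comparison cells. For replication the shares were 91.9% and 86.3% against 83.3% and 82.2%. Without thinning, the mitosis shares were 89.2% and 81.02% against 65.2% and 68.6%. Among the cyclins and inhibitors, Cdkn1a, the cell cycle inhibitor p21, was the single gene called, 1.69 and 1.77 times as high. Of the calmodulin list, chosen because neurogranin binds calmodulin, 1 of 7 tested genes was higher, the kinase gene Prkch (1.64 and 1.90 times). The E protein and Id list (6 tested), the Bcl2 family list (4) and the cytokine receptor list (4) had none. Among dendritic cell genes 1 of 2 was higher, Bst2, an interferon-inducible membrane protein (2.96 and 1.72 times). Of the homing genes 1 of 7 was lower (Cd34), of the fetal Lin28b program 1 of 4 was higher (H19) and 1 lower (Hmga2), and of the Khdc1 and Akr1c families 1 of 4 was higher (Akr1c13). Of 10 tested genes in the study's own T cell network, a list chosen by the study and not independent evidence, 4 were higher (Cd3g, Hes1, Notch1 and Tcf7) and 1 lower (Hhex, a progenitor factor).

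Several genes changed by degrees along the count of trio UMIs, and others less evenly. From 0 over 1, 2, 3 to 4, 5 to 14 and 15 to 49 to 50 or more trio UMIs, Cd3g ran through 50.6, 61.8, 118, 155, 868, 1044 and 2112 CPM in FL001 and 241, 401, 602, 931, 1285, 1291 and 1759 in FL002. Over the same bins Cd34 ran through 214, 149, 124, 70.3, 45.1, 38.9 and 28.2 in FL001 and 185, 130.1, 80.6, 60.8, 29.7, 26.9 and 7.996 in FL002. Plac8 rose at every step, from 470.1 to 2468 and from 835 to 2489. Tcf7 ran through 47.6, 106, 226, 158, 239, 275 and 402 in FL001 and 76.4, 188, 251, 305, 373, 357 and 405 in FL002, with dips at 3 to 4 UMIs in FL001 and 15 to 49 in FL002. Tcrg-C1 and Akr1c13 did not follow the order in FL001. There Tcrg-C1 ran through 184, 69.5, 162, 348, 309, 412 and 549 and Akr1c13 through 173, 85.0, 102, 211, 406, 335 and 732. Also in FL001, Hmga2 fell to 4.66 CPM at 5 to 14 UMIs but stood at 18.1 and 28.2 in the bins above. Fos fell to 14.6 CPM at 3 to 4 UMIs there and stood at 28.2 at 50 or more. Depth was greatest in the last bin too, at medians of 11586 (FL001) and 8192 (FL002) UMIs, and its part in the order of cells was not tested.

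Few genes passed the threshold between trio cells and cells with Il2ra. Cells with Il2ra but without the commitment genes numbered 302 and 986, at median depths of 8879.5 and 4529 UMIs. Of these, 229 and 657 held at least 2 Il2ra UMIs and the rest only 1. A cell whose Il2ra molecules were missed could thus count as a trio cell, and the part of this in the likeness of the groups was not tested. Of 2801 genes tested, none was higher in trio cells in both libraries (0%) and 13 were lower (0.464%). Among cells with Cd3g 1 was higher and 7 lower, and with at least 2 UMIs of Il2ra or of the trio in the Il2ra cells 2 and 1 were higher. The number of genes tested was not kept for these alternatives. The 13 included parts of the T cell receptor complex. Cd3g was 2.17 and 1.89 times lower in trio cells, at 1020.1 against 2209.7 CPM in FL001 and 1196 against 2254 in FL002, Cd3d 2.62 and 2.20 times, Tcrg-C2 1.62 and 2.01 times, and Trdc, the delta chain segment and the largest difference, 3.09 and 3.09 times. The survival gene Bcl2 was at 42.6 against 92.5 CPM in FL001 and 49.3 against 101 in FL002 and Socs2, an inhibitor of cytokine signalling, at 50.001 against 81.5 CPM in FL001 and 74.4 against 129 in FL002. The others were 2300002M23Rik, Napsa, Prkca, Xbp1, Rgcc, Ubac2 and Mpp1.

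Of the 67 genes higher in trio cells than in comparison cells, 62 did not pass the threshold against Il2ra cells and 5 (Cd3g, Napsa, Rgcc, Tcrg-C2 and Xbp1) were higher again in Il2ra cells. Of the 51 lower genes only 21 were abundant enough to test there, and none passed. Both comparisons share the trio cells. Tcf7 was at 271 and 346 CPM in trio cells and 293 and 396 in Il2ra cells. Cd160 was at 236 and 174 in trio cells and 237 and 143 in Il2ra cells. Gzmb was at 119 and 121 in trio cells, 85.98 and 65.1 in Il2ra cells and 52.6 and 29.7 in cells with Ptcra, Lef1 or Bcl11b. As a description of the genes of the rule, Gzma was at 2563 and 2364 in trio cells, 3754 and 2750.5 in Il2ra cells and 7587 and 4919.9 in committed cells. Nrgn was at 247 and 295 in trio cells, 280.05 and 247 in Il2ra cells and 243 and 249.9 in committed cells. Khdc1a was at 37.3 and 75.3, 79.4 and 107 and 68.1 and 137 in the same order. At least 2 trio UMIs were found in 95.4% and 85.6% of Il2ra cells and 96.6% and 91.9% of committed cells, but in 24.5% and 20.1% of the progenitors with 2 or more Lmo2 and Mef2c UMIs. Cells with 3 or more UMIs of Id2, a regulator of innate lymphoid fates, had them in 84.1% and 73.8%, and a Cd3g UMI in 78.3% and 72.6%.

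**Figure D5:**
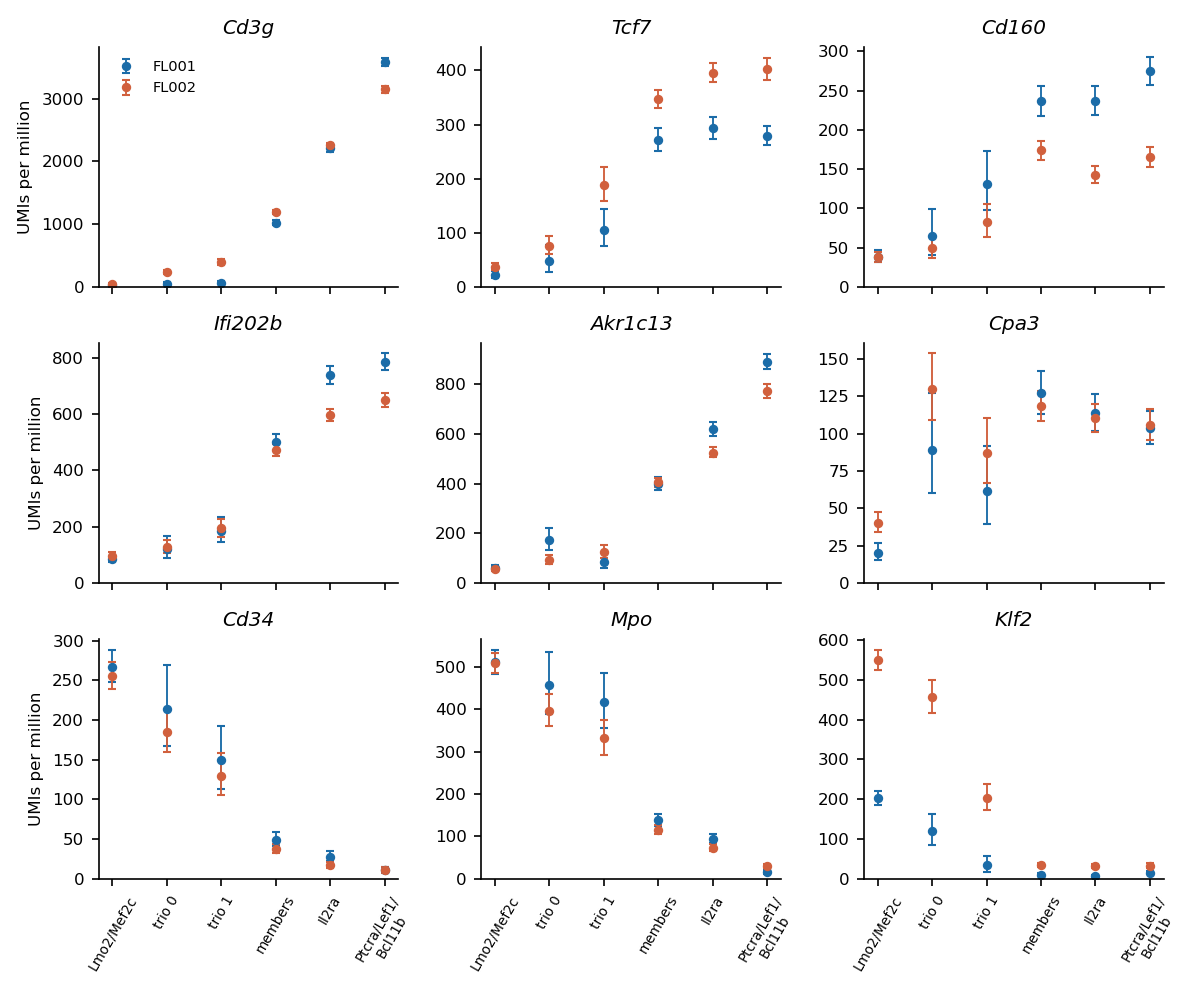
Levels in CPM of 9 genes in FL001 (blue) and FL002 (orange), with exact 95% Poisson intervals, in cells with Lmo2 or Mef2c, cells with 0 and with 1 trio UMI, trio cells (members), Il2ra cells, and cells with Ptcra, Lef1 or Bcl11b. Cd3g stands higher again in Il2ra cells, Tcf7 and Cd160 are near the Il2ra level already, and Cd34, Mpo and Klf2 stand above the trio cells in the first 3 classes.

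The rule left Cd3g free, and the trio cells were split by it. A Cd3g UMI was present in 64.6% (58.5% to 70.4%) of trio cells in FL001 and 70.1% (66.9% to 73.2%) in FL002, against 10.6% (4.37% to 20.6%) and 23.3% (18.2% to 28.9%) of comparison cells and 90.4% and 88.1% of Il2ra cells. In granule gene cells, where Cd3g should be absent, the share was 12.3% and 17.4%. These groups differ in depth. Thinned to 1500 UMIs, the shares were 41.9% and 53.8% of trio cells, 6.06% and 13.6% of comparison cells and 2.74% and 4.35% of granule gene cells.

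Trio cells with Cd3g (168 and 580) were compared with those without (92 and 247). Of 2795 genes tested, 25 were higher with Cd3g (0.894%) and 6 lower (0.215%). The largest ratio was that of Mpzl2, an adhesion molecule, 4.86 and 8.72 times, followed by Timp2, a protease inhibitor, 3.24 and 4.001 times, and H19, 4.48 and 3.01 times. The gamma chain segment Tcrg-C1 was 2.07 and 3.13 times as high in the cells with Cd3g, Tcrg-C2 2.29 and 3.64 times and Tcrg-C4 1.97 and 2.18 times. Akr1c13 was 2.32 and 2.76 times as high and Gata3 1.58 and 1.67 times. The 6 lower were Mpo, Bcl11a, Rgs18, Hhex, Cd48 and Vim. Mpo was at 97.9 against 221 CPM in FL001 and 71.8 against 213 in FL002 in cells with against without Cd3g. The split rests on single UMIs, and with Cd3g and all levels taken from cells thinned to 1500 UMIs 47 genes were higher and 23 lower. How many genes were tested after thinning was not kept, so no share is given.

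Trio cells without Cd3g still differed from comparison cells without it (59 and 198 cells). Of 2777 genes, 55 were higher (1.98%) and 41 lower (1.48%), and 3 moved past 1.5-fold in opposite directions (Apitd1, Snx17 and Zc3hav1, named here after their values were seen). Of the called genes, 37 of the 55 and 30 of the 41 were among the 67 and 51 of the whole comparison, which holds the same cells. Tcf7 was at 221 against 32.9 CPM in FL001 and 185 against 43.3 in FL002. Cd160 was at 201 against 42.8 CPM in FL001 and 184 against 38.5 in FL002, and Ifi202b at 399 against 79.01 CPM in FL001 and 296 against 86.6 in FL002. In the Notch list Dtx1, Hes1, Notch1, Nrarp and Tcf7 were higher, 5 of 6 tested, with Dtx1 1.53 and 2.05 times as high and Nrarp 2.31 and 2.61 times. Gzmb was 1.86 and 3.47 times as high. Other calls did not pass without Cd3g. Fcer1g, Ifitm1, Ifitm3, Ly6e, Akr1c13, H19 and Cdkn1a were tested and no longer higher, and Bcl11a, Hhex and Dnajb1 no longer lower. Ly6e, for example, had ratios of 1.05 and 2.15. Jund was not called lower there either, and 4 of 8 tested genes of the immediate early list were. Bst2, Prkch, Rgcc, Rras2, Runx3 and Tmem121 were below the level tested there. All but Prkch (1.06 and 1.56 times) still had ratios past 1.5, such as Rras2 at 2.46 and 2.78. Of the stem and progenitor list 1 of 8 tested genes remained lower, Cd34. Cd34 was 2.78 and 2.96 times lower and Klf2 19.4 and 8.18 times.

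The trio cells of the libraries were alike for most genes. Of 2968 genes tested, 37 were at least 1.5-fold higher in FL002 (1.25%) and 23 lower (0.775%). The largest differences were in Scand1, at 7.38 against 171 CPM in FL001 against FL002, and Tgfb1, at 14.3 against 164 CPM. Comparison cells differed the same way, 5.95 against 197 for Scand1 and 11.9 against 211 for Tgfb1. Xbp1 was at 125 against 234 CPM in trio cells and 56.5 against 80.2 in comparison cells. Library and any culture difference cannot be told apart here.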

How the data were processed

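The authors sorted fetal liver progenitors, captured some directly and others after culture, and made 2 single-cell libraries. The deposited files hold raw counts of UMIs per gene and barcode for every barcode, with no filter or normalization. The submitters' processing notes name the mouse genome build mm9. Per the study's methods, CellRanger made the count matrices from the reads. Its version and the strand setting are not given in the sources used here. A barcode was kept as a cell from 1500 UMIs and 500 genes upwards if no more than 10% of its UMIs were mitochondrial, which left 1788 and 4100 of 1824 and 4113 deep barcodes (16320118 and 22651783 UMIs per library, medians of 7722 and 4752.5 per kept cell). Counts were summed over the cells of a group and scaled to 1000000 per group (CPM). Each ratio was taken within a library, and no test over the libraries was run. Intervals are exact Poisson for levels, Clopper-Pearson for shares and exact conditional for ratios, at 95%. A group at 0 was set to 3 counts over the group. Genes were called at 1.5-fold in both libraries where the mean of the groups reached 50 CPM. Doublets were not removed: Scrublet, run through scanpy 1.11.5 on each library, marked 0.391% and 0.0244% of cells, too few to trust, so the top 5% of scores were removed as an alternative. Named genes are the 12 largest each way by the smaller of the ratios, the markers of the population, the genes of the rule and the granzyme and Khdc1 relatives, and up to 6 per list. The members and the 27 gene lists were chosen with earlier results of these data known. Some genes named beside them, such as Runx3, Xbp1, Mpzl2 or Flt3, were picked after their values were seen. Promoter sequences are from RefSeq on GRCm38.p6. No other coordinates are given, since the submitters' notes name mm9 and the build behind the counts was not checked. Python 3.11.15 with numpy 2.4.6, scipy 1.17.1 and pandas 2.3.3 was used. Alternatives changed the trio threshold, depth, mitochondrial limit, each limit of the rule, the gene that defines members, the comparison cells, the fold and the level tested.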

Additional observations from a re-analysis of the deposited data

How the results depend on the processing

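The share of trio cells among cells within the rule's other limits moved with the rule itself: 61.0% and 56.5% in FL001 and FL002 with 3 trio UMIs, 42.0% and 44.3% with every cell thinned to 1500 UMIs, 76.9% and 74.7% with Lmo2 and Mef2c at 0, and 63.5% and 62.1% with Id2 at 0. The counts of 67 genes higher and 51 lower became 21 higher and 23 lower at 2-fold, 130 higher and 174 lower from 20 CPM and 35 higher and 23 lower from 100, as fewer or more genes could pass. For most alternatives the number of genes tested was not kept, so these counts carry no share. With cells of 1 trio UMI among the comparison cells 33 were lower and 47 higher. Under the other 17 and 16 alternatives, with 2 of them chosen after seeing the data (cells without Fos, Jun or Klf2, and cells with fewer than 2 UMIs of other lineages), the counts ran from 47 to 91 higher and 40 to 69 lower. After thinning, 48 of the 67 and 30 of the 51 were again among the genes called, and with cells of 3000 to 8000 UMIs 51 and 32. Among cells without Fos, Jun or Klf2 only 24 of the 67 and 19 of the 51 were, from 24 comparison cells in FL001. There Klf6 turned to 1.25 (log2, FL001), the cause of which was not tested, and the immediate early median to 0.14 (FL002), where 2 of its genes had been used to pick the cells. Without Cd3g, H19 turned to -0.39 in FL001, and the cause was not tested. Against Il2ra cells, 1 gene was higher and 7 lower among cells with Cd3g, 2 were higher with 2 Il2ra UMIs and 1 with 2 trio UMIs, alternatives chosen after seeing the data. Trio cells with against without Cd3g gave 47 higher and 23 lower after thinning. Members by Khdc1a alone (16 cells in FL001) and cells with Cd3g only (7 comparison cells in FL001) left under 20 cells, so no count over both libraries was made. Depth limits the FL001 comparison cells, whose 336116 UMIs put 3 counts at 8.93 CPM.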
